A study of Mus musculus with 4 samples.

Results

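The immediate early genes described here are Fos, Fosb, Jun, Junb, Atf3, Egr1, Ier2, Nr4a1, Dusp1 and Btg2, 10 named genes of the 21885 in the count tables, and all 10 were found by symbol. They were measured by spatial transcriptomics (Visium, an array of barcoded spots that captures polyadenylated RNA from a tissue section) on 1 section from each of 4 mouse hearts. The groups were 1 uninjured control heart, 1 heart at 3 days post-infarction (3 dpi) and 2 hearts at 5 dpi, the infarct having been made by tying off the left anterior descending coronary artery. All 4 mice carried the Collagen1a1-GFP transgene, which marks fibroblasts by green fluorescent protein under a collagen promoter, and were 8 to 12 weeks old. The control and the 3 dpi heart have no replicate, differences between time points were not tested, and their intervals cover counting error only.

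Depth was highest after infarction. After quality filters 1146 control spots, 1741 spots at 3 dpi and 1423 to 1535 spots at 5 dpi were kept, with 3742105 non-mitochondrial UMIs (unique molecular identifiers, which count captured molecules) in the control and 8314946 to 9540940 in the infarcted sections. Mitochondrial genes took 40.1% of UMIs in the control and 13.3% to 21.4% after infarction. The 10 genes together gave 756 UMIs in the control, 2715 at 3 dpi, and 4225 and 2727 in the pair at 5 dpi, whose labels call the first female and the second male. Those sex labels went against the data: 4 Y-linked genes gave 704 UMIs in the first and 1 in the second, so they are called the F-labelled and the M-labelled heart here, by label only. The control and 3 dpi sections gave 0, so the F-labelled heart alone held Y-linked RNA beyond 1 UMI. That heart also stands apart in several values below, and the part of sex in them was not tested. Levels are CPM, the counts of a gene per 1000000 non-mitochondrial UMIs.

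Immediate early genes are transcribed within minutes of a stimulus without new protein synthesis, from promoters already occupied by serum response factor, CREB and related factors that kinase cascades switch on. Fos, Fosb, Jun and Junb encode subunits of the AP-1 transcription factor, and Atf3 is a stress-induced factor of the same bZIP superfamily. Egr1 is a zinc finger factor, Nr4a1 an orphan nuclear receptor and Ier2 a small nuclear protein. Dusp1 is a phosphatase that switches off MAP kinases, and Btg2 is an antiproliferative protein that p53 can induce. In the heart, mechanical stretch, ischaemia and growth factors are known triggers. A Visium spot covers several cells, so fewer cells of a type and less RNA per cell cannot be told apart.

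Promoters were read from RefSeq on GRCm38.p6, the assembly also called mm10; the count tables carry no coordinates, and the sources used here name different builds for their reference. The RefSeq table held 8 of the 10 genes, all but Egr1 and Ier2. The 250 bases before the annotated start are shown for Fos, Junb and Atf3, which rose in the infarct zone, for Dusp1, which fell there, and for Btg2, because Dusp1 and Btg2 alone held a whole cyclic AMP response element. Sequences run 5′ to 3′ on the strand of the gene, and capitals mark a motif match on either strand.
Fos, chr12:85473640-85473889, plus strand: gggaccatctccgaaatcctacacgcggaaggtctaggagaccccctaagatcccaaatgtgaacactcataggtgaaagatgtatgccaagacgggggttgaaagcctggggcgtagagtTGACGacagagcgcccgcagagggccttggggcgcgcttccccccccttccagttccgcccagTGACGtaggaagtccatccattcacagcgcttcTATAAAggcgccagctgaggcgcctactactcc
Junb, chr8:84978749-84978998, minus strand: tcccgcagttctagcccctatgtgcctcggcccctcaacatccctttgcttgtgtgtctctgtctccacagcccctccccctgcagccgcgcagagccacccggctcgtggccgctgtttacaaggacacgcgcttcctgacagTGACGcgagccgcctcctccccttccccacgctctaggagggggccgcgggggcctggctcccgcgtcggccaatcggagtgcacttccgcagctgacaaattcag
Atf3, chr1:191183334-191183583, minus strand: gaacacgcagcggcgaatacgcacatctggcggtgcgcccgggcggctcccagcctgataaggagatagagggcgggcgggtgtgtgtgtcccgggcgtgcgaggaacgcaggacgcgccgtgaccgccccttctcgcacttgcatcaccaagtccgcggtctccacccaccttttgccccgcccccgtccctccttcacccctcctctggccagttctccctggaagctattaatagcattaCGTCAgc
Dusp1, chr17:26508473-26508722, minus strand: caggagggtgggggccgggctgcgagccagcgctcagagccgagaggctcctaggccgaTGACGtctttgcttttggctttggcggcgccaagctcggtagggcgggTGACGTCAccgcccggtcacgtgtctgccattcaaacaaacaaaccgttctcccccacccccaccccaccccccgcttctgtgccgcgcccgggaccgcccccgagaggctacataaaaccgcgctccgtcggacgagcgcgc
Btg2, chr1:134079156-134079405, minus strand: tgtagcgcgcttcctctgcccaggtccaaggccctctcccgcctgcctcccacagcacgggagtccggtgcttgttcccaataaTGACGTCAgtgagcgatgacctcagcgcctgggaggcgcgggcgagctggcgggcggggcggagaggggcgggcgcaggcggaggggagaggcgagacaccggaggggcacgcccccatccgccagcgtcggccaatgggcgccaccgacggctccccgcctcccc

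Within a window of 250 bases before to 50 after the start, searched on both strands, the cyclic AMP response half-site TGACG was present in 7 of the 8 promoters, all but that of Jun, and in 20.8% of the 32851 promoters in the table. In Fos it lay at -129 to -125 and at -66 to -62, upstream of a TATA box (TATAAA) at -33 to -28. In Junb it lay at -106 to -102, and a TATAAA match began at the annotated start itself, outside the stretch shown. In Atf3 it lay at -7 to -3 on the opposite strand. The whole element TGACGTCA, which contains the half-site on both strands, lay at -143 to -136 in Dusp1 and at -166 to -159 in Btg2, and in 1.79% of all promoters. TATAAA was present in 2 of the 8, against 13.6% of all. The CArG box bound by serum response factor, the AP-1 site TGANTCA and the EGR site GCGTGGGCG were in 1.63%, 7.81% and 0.612% of all promoters and in 0 of the 8 windows, which says only that those letters are not in this stretch.

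Over whole sections, 5 of these genes were at least 2-fold higher than the control in every infarcted heart. Among AP-1 genes, Fos stood at 2.41 CPM in the control (9 UMIs), 10.1 CPM at 3 dpi, 28.9 CPM in the F-labelled and 11.9 CPM in the M-labelled heart at 5 dpi, the order used below. Every infarcted section was above the control, the nearest by 4.22-fold (95% exact interval 2.12 to 9.54), and the F-labelled heart stood apart from the other two. Junb was at 13.9 CPM in the control, and at 59.0, 85.3 and 51.4 CPM in the same order of infarcted sections. Its nearest section was 3.70-fold higher (2.77 to 5.03). Jun did not follow them, with 54.5 CPM in the control against 54.6, 63.6 and 51.5 CPM, values that lay on both sides of the control. Fosb was scarce, with 1 UMI in the control and 0.358 to 1.68 CPM after infarction, and its ratio to the control (1.34, 0.108 to 70.4 in the nearest section) was not resolved at this depth.

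Atf3 differed least between the infarcted hearts. It measured 11.2 CPM in the control and 33.7, 36.0 and 35.5 CPM after infarction, a 3.00-fold difference in the nearest section (2.16 to 4.25). Egr1 was at 6.95 CPM in the control and at 24.7, 35.4 and 24.7 CPM after infarction, 3.55-fold higher in the nearest section (2.35 to 5.56). Nr4a1 was at 4.54 CPM against 10.1, 16.6 and 9.14 CPM, and its nearest section was 2.01-fold higher (1.18 to 3.63). All infarcted sections lay above the control for both genes. Ier2 was at 36.6 CPM against 65.6, 94.5 and 83.6 CPM, 1.79-fold higher in the nearest section (1.48 to 2.18). Btg2 was at 21.9 CPM in the control and at 38.4, 37.8 and 27.8 CPM after infarction. The nearest section of Btg2 was 1.27-fold higher, with an interval of 0.981 to 1.65 that includes no difference. Dusp1 alone was lower in all 3 infarcted sections, at 27.6, 43.0 and 31.9 CPM against 49.7 CPM, and the control exceeded the nearest by 1.16-fold (0.967 to 1.38). Of the 9304 genes that reached 10 CPM in a section, 24.1% were below the control in all 3 infarcted sections and 64.5% above it. With mitochondrial UMIs counted in the total this order was lost, at 21.7, 37.2 and 27.3 CPM against 29.8 CPM, and Jun was higher in all 3, at 42.9, 55.1 and 44.1 CPM against 32.6 CPM.

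The 5 genes past 2-fold were Fos, Junb, Atf3, Egr1 and Nr4a1, of the 9 that reached 10 CPM in at least 1 section. Fos, Egr1 and Nr4a1 were under 10 CPM in the control and reached it only after infarction, so they entered the 9 through their high sections. Of all 9304 genes at that level, 24.6% were at least 2-fold higher in the nearest infarcted section and 5.19% at least 2-fold lower, and none of the 9 was lower by that much. When mitochondrial UMIs were counted in the total, Ier2 also passed 2-fold (2.35), which made 6 of the 9 genes, beside 42.6% of all genes under that total. With the cardiomyocyte marker genes left out of the total, Nr4a1 was lost (1.88-fold), which left 4 of the 9, beside 21.9% of all genes. Cell composition moved with these differences, and its part in them was not tested. The 12 cardiomyocyte marker genes summed to 101295 CPM in the control and 19812 to 45259 CPM in the infarcted sections, the 8 macrophage genes to 798 CPM against 5170 to 9460 CPM, and the 7 fibroblast genes to 1062 CPM against 7465 to 15021 CPM, with no gene of the 3 lists at 0. When the comparison was limited to cardiomyocyte-rich spots, 1 of the 8 genes that reached 10 CPM there, Egr1, was at least 2-fold higher in every infarcted section (2.66-fold in the nearest), beside 7.40% of all genes. Egr1 was at 6.95 CPM in the control there and reached 10 CPM only in the infarcted sections. In the spots richest in cardiomyocyte RNA, at a share of 0.8 and over as described below, Egr1 was at 9.82, 38.2 and 10.7 CPM against 7.90 CPM in the control, under 2-fold in 2 of the 3 hearts and with intervals overlapping that of the control there.

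**Figure D1:**
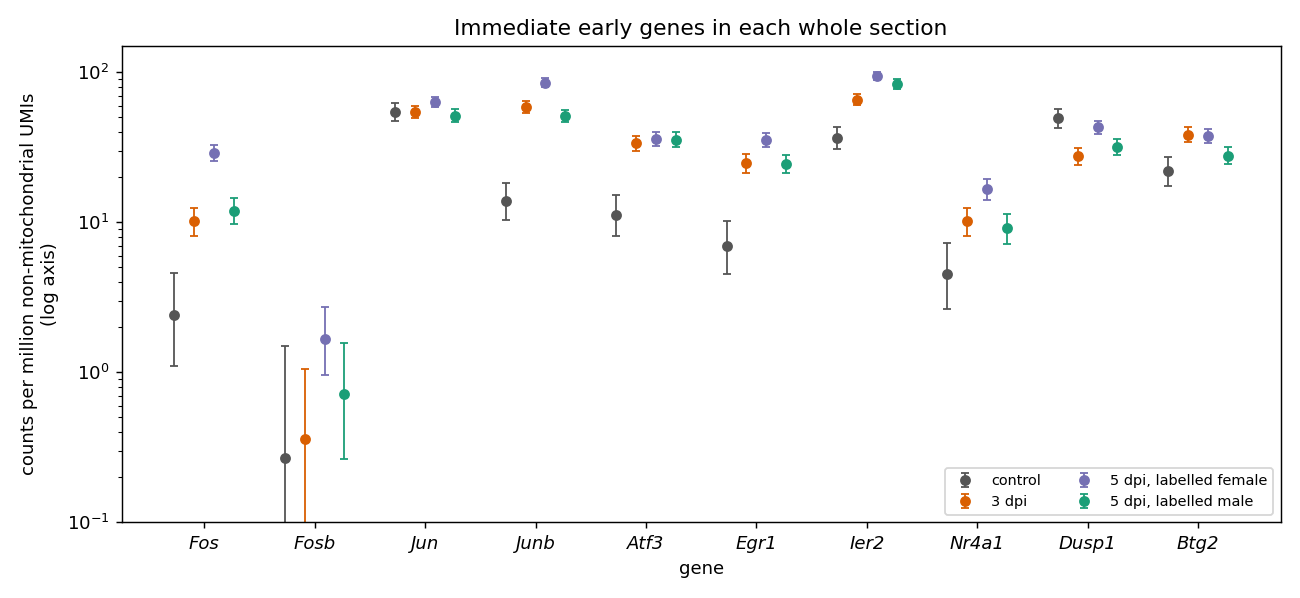
Level of each gene in the 4 whole sections, in CPM of non-mitochondrial UMIs on a log axis, with exact 95% Poisson intervals as bars. Fos, Junb, Atf3, Egr1 and Ier2 lie above the control in all 3 infarcted sections with intervals apart, and Jun overlaps it. Dusp1 lies below it, with intervals that overlap in the F-labelled heart.

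To place the genes within the infarcted hearts, spots were assigned to zones from the share of 12 cardiomyocyte genes in their UMIs. Spots under 0.5 times the 90th percentile of their section formed the infarct zone (IZ) when they lay in patches of at least 10. Spots within 2 array steps of it formed border zone 2 (BZ2), those at 3 to 4 steps border zone 1 (BZ1), and the rest the remote zone (RZ). Counts were summed per zone and heart and tested by edgeR's quasi-likelihood test over 9811 genes, with the section as a block and Benjamini-Hochberg adjusted p-values. Its TMM scaling placed IZ against RZ 0.39 lower on the log2 scale than plain CPM, and BZ2 against RZ 0.16 lower. Log2 fold changes below are on the TMM scale unless called CPM ratios, and Fosb was too low to be tested.

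The IZ held more Fos, Junb and Atf3 than the RZ in every infarcted heart. Fos measured 14.2, 34.4 and 17.6 CPM in the IZ at 3 dpi and in the F-labelled and M-labelled hearts, against 3.76, 7.16 and 4.43 CPM in the RZ. The zones did not overlap, and the log2 fold change was 1.65 ± 0.32 (SE; adjusted p = 0.000202). Junb measured 76.5, 94.5 and 70.3 CPM in the IZ against 27.9, 35.8 and 20.9 CPM in the RZ, with a log2 fold change of 1.16 ± 0.17 (adjusted p = 4.86e-06). Atf3 went from 14.3, 7.16 and 12.5 CPM in the RZ to 43.9, 42.1 and 51.3 CPM in the IZ, or 1.58 ± 0.23 (adjusted p = 4.40e-06). These 3 genes passed the threshold under each of the 13 alternative settings tried.

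Dusp1 fell in the IZ. It stood at 27.0, 42.5 and 28.3 CPM in the IZ against 36.1, 49.0 and 40.3 CPM in the RZ of the same sections, a log2 fold change of -0.77 ± 0.16 (adjusted p = 0.000301). It was lower in the IZ in 3 of 3 hearts, although IZ values of one heart exceeded RZ values of others, and scaling by library size alone gave -0.38 (adjusted p = 0.0377). In all, 3 of the 9 genes tested were higher and 1 lower in the IZ, in a comparison in which 54% of all genes passed, 28.2% higher and 25.8% lower. The median log2 fold change was 0.25 over the 9 and 0.08 over all genes.

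The other 5 genes did not pass in that comparison, and their values differed between hearts. Ier2 was higher in the IZ of each heart, at 78.9, 95.1 and 103 CPM against 41.4, 76.4 and 51.6 CPM, with a log2 fold change of 0.38 ± 0.17 (adjusted p = 0.0679). Egr1 was at 29.1 and 28.7 CPM in the IZ of the 3 dpi and M-labelled hearts against 14.3 and 16.5 CPM in the RZ, but at 36.0 against 39.4 CPM in the F-labelled one. Its pooled log2 fold change was 0.16 ± 0.22 (adjusted p = 0.551). Jun gave 66.9, 64.0 and 63.2 CPM in the IZ and 32.4, 60.9 and 36.7 CPM in the RZ, close to level only in the F-labelled heart (0.25 ± 0.18, adjusted p = 0.274). Nr4a1 (-0.35 ± 0.26) and Btg2 (-0.23 ± 0.19) turned positive, at 0.03 and 0.17, when scaled by library size alone. Under that scaling Ier2, Jun and Egr1 also passed, which made 7 genes in place of 4, while the share of all genes called went from 54% to 65.7%. Ier2 passed under 5 of the 13 alternatives, the other ones being a zone limit of 0.6, the percentile of the control, all spots under tissue and the removal of the F-labelled heart, and its adjusted p ran from 0.000934 to 0.419.

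Markers of other cells moved with the zones. All 12 cardiomyocyte genes were lower in the IZ than in the RZ, but the zones were cut from the share of these same genes, so their fall is no result. All 8 macrophage genes and 4 of 7 fibroblast genes were higher in the IZ, and 5 of 7 endothelial genes were lower. Summed macrophage genes reached 7242 to 11335 CPM in the IZ against 1333 to 1784 CPM in the RZ, and fibroblast genes 9518 to 17287 CPM against 2729 to 3674 CPM. Of 5 neutrophil genes, 3 could be tested and all 3 were higher. The part of these cells in the values of the immediate early genes was not tested.

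In the near border, BZ2 against RZ, 0 of the 9 genes were higher and 1 was lower by edgeR, beside 8.61% of all genes (3.95% higher, 4.66% lower), and 2 of the 9 had an unadjusted p under 0.05, beside 20.7% of all genes. DESeq2 called 0 of them, with 2 at an unadjusted p under 0.05. The one called was Dusp1, at 20.4, 41.0 and 29.2 CPM in BZ2 (log2 fold change -0.71 ± 0.20, adjusted p = 0.0330). It did not pass under 9 of the 13 alternatives, among them each removal of 1 heart, where its adjusted p ran from 0.120 to 0.244. Junb lay just outside the threshold, at 41.6, 64.5 and 42.8 CPM in BZ2, above the RZ of the same heart in 3 of 3 (0.65 ± 0.20, adjusted p = 0.0507, and 0.0153 to 0.630 under the alternatives). Scaling by library size alone exchanged these calls: Junb passed as higher (0.81, adjusted p = 0.0153) and Dusp1 did not pass (-0.54, adjusted p = 0.0958), beside 7.52% of all genes higher and 2.95% lower. Fos in BZ2 was at 2.35, 10.3 and 5.84 CPM and Atf3 at 22.0, 8.80 and 11.7 CPM, each with an interval that overlapped that of the RZ of the same heart.

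Between IZ and BZ2, 3 of the 9 genes were higher in the IZ and 0 lower, beside 34.3% of all genes (15.7% higher, 18.6% lower). Fos gave a log2 fold change of 1.74 ± 0.39 (adjusted p = 0.00124), Atf3 1.33 ± 0.25 (adjusted p = 0.000245) and Junb 0.51 ± 0.17 (adjusted p = 0.0249). Fos and Atf3 kept their side of the threshold under all 13 alternatives. Junb did so under 8 of them and was lost when any 1 heart was left out (adjusted p 0.0948 to 0.138).

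**Figure D2:**
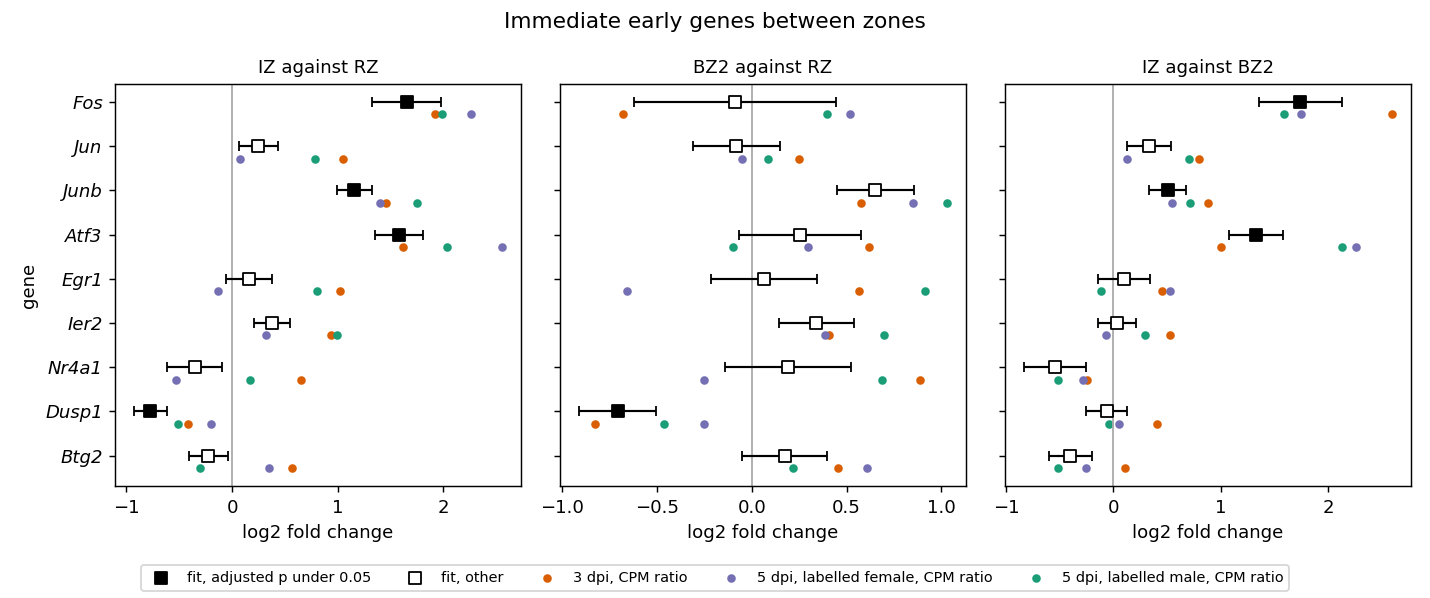
Log2 fold changes of 9 immediate early genes in the 3 zone comparisons, one per panel. Squares with SE bars are the edgeR fits on the TMM scale, filled where the adjusted p was under 0.05, and coloured points are the CPM ratios of the 3 hearts, so that in the first panel the points lie about 0.39 higher than the fit.

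Ordering spots by cardiomyocyte content placed Fos, Junb and Atf3 highest where muscle RNA was lowest, while Btg2 was highest between the extremes. Spots were grouped by their cardiomyocyte share over the 90th percentile of that share in the section, from under 0.2 to 0.8 and over. Fos was highest in the poorest group of each infarcted heart, at 17.6, 38.9 and 19.3 CPM against 2.62, 5.88 and 2.55 CPM in the richest. Junb was at 87.8, 98.6 and 74.3 CPM in the poorest and 23.6, 35.3 and 20.9 CPM in the richest. Atf3 was at 46.4, 46.5 and 54.8 CPM against 12.4, 6.86 and 13.3 CPM. For these 3 genes the intervals of the poorest and richest groups were apart in all 3 hearts.

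Btg2 was highest in a group between the extremes in each infarcted heart, though not the same group. At 3 dpi it reached 49.1 CPM at a share of 0.2 to 0.4, against 36.7 CPM in the poorest and 24.2 CPM in the richest group, and its interval was apart from that of the richest group only. In the F-labelled heart it reached 47.5 CPM at 0.6 to 0.8, against 38.6 and 26.5 CPM, with an interval that overlapped both. In the M-labelled heart it reached 47.3 CPM at 0.4 to 0.6, against 22.5 and 24.0 CPM, with an interval apart from that of the poorest group only. These groups were picked as the highest, so the intervals are a description. Nr4a1 was highest at 0.4 to 0.6 at 3 dpi (15.2 CPM) and in the M-labelled heart (19.6 CPM), and in the richest group of the F-labelled heart (23.5 CPM), with intervals that overlapped those of the extreme groups in each heart.

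Egr1, Ier2 and Jun were lower in the richest than in the poorest group, with intervals apart, in 2 of the 3 hearts. Egr1 was at 31.0 CPM in the poorest and 9.82 CPM in the richest group at 3 dpi, and at 26.3 and 10.7 CPM in the M-labelled heart, with intervals apart in both. In the F-labelled heart it was nearly level, at 35.1 and 38.2 CPM. Ier2 was likewise level there, at 96.3 and 84.3 CPM, and stood at 85.7 against 36.7 CPM and 107 against 42.9 CPM in the others. Dusp1 was highest in the richest group of every infarcted heart (32.7, 51.0 and 40.4 CPM), but its intervals overlapped those of the poorest group (26.6, 43.9 and 27.8 CPM).

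**Figure D3:**
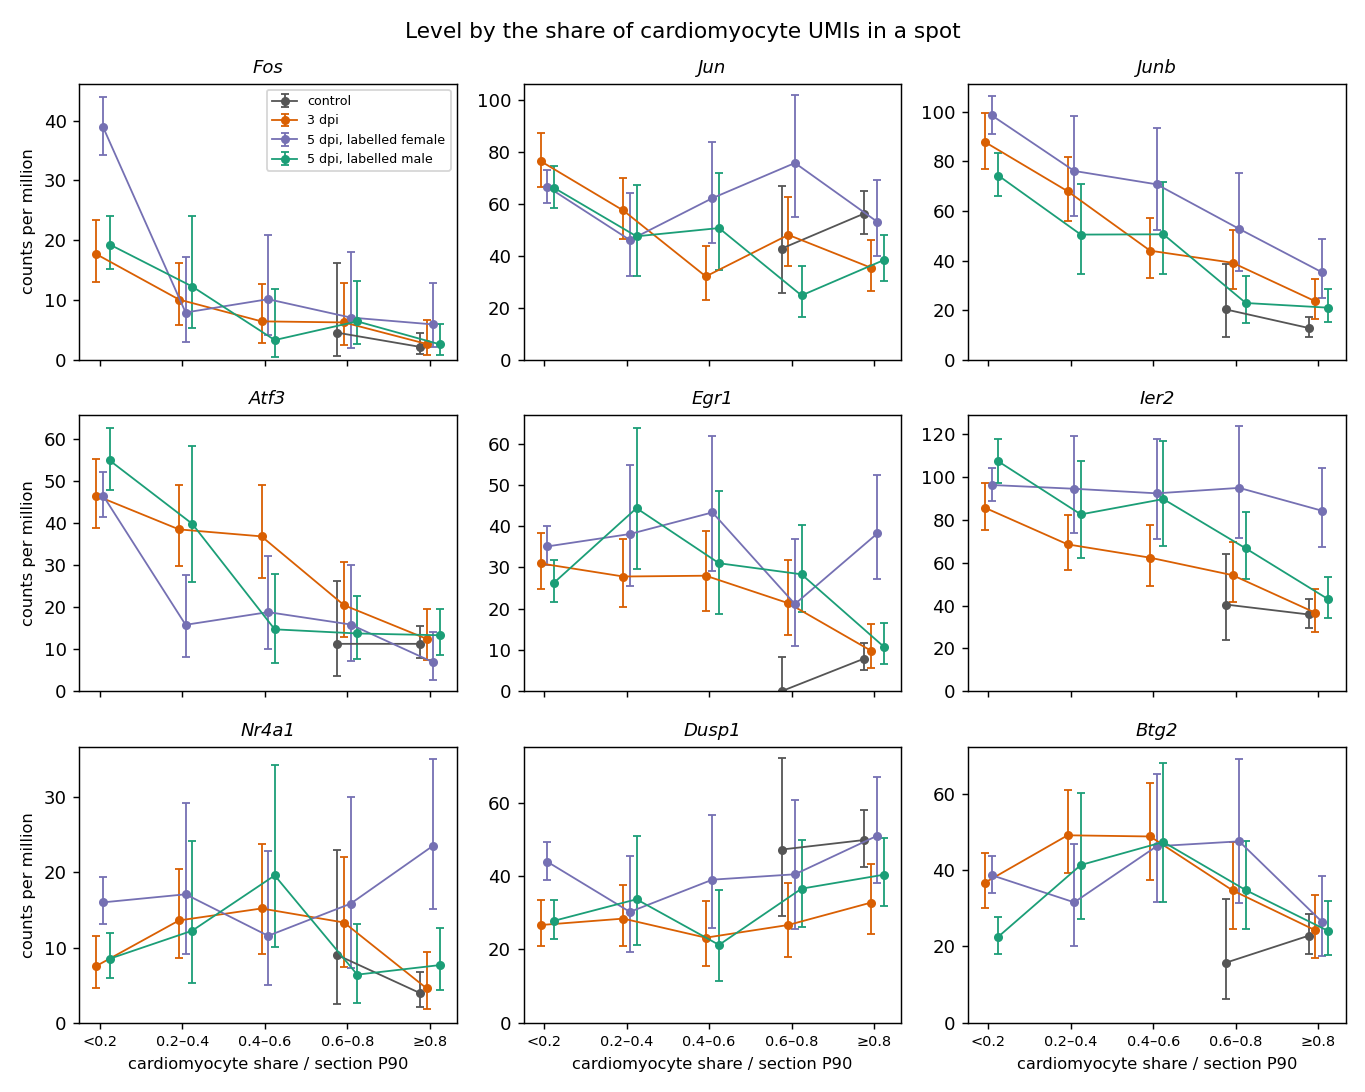
CPM of 9 immediate early genes by the cardiomyocyte share of a spot, relative to the 90th percentile (P90) of the section, with exact 95% Poisson intervals; groups under 50 spots are left out. Fos, Junb and Atf3 are highest at the left, in spots poorest in cardiomyocyte RNA, Btg2 is highest between the extremes in all 3 hearts, and the F-labelled heart keeps high Egr1, Ier2 and Nr4a1 at the right.

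Distance from the infarct border gave a similar picture for Fos and Junb, which were higher deep inside the infarct than just inside its border. In the 2 outermost steps inside the border, Fos was at 10.0, 10.6 and 3.80 CPM, and more than 4 steps inside it was at 15.3, 42.1 and 19.3 CPM. Junb was at 54.2, 74.9 and 38.0 CPM near the border and at 94.9, 101 and 77.9 CPM deep inside. Of these, the intervals of Fos overlapped at 3 dpi and those of Junb in no heart. Atf3 was at 45.7 CPM near the border and 38.2 CPM deep inside at 3 dpi, but at 15.9 and 32.3 CPM near the border and 49.3 and 55.3 CPM deep inside at 5 dpi, with intervals apart in the F-labelled heart alone. Egr1 and Btg2 differed between hearts. Egr1 was highest 3 to 4 steps inside in the M-labelled heart (51.4 CPM) and at 3 dpi (30.9 CPM), and within 2 steps inside in the F-labelled heart (40.6 CPM). Btg2 was highest within 2 steps inside at 3 dpi (47.7 CPM) and in the M-labelled heart (39.9 CPM), and within 2 steps outside in the F-labelled heart (45.4 CPM). Of these peaks, only that of Egr1 in the M-labelled heart had an interval (30.9 to 80.3) apart from a neighbouring step, the one deeper inside (20.2 to 30.3).

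**Figure D4:**
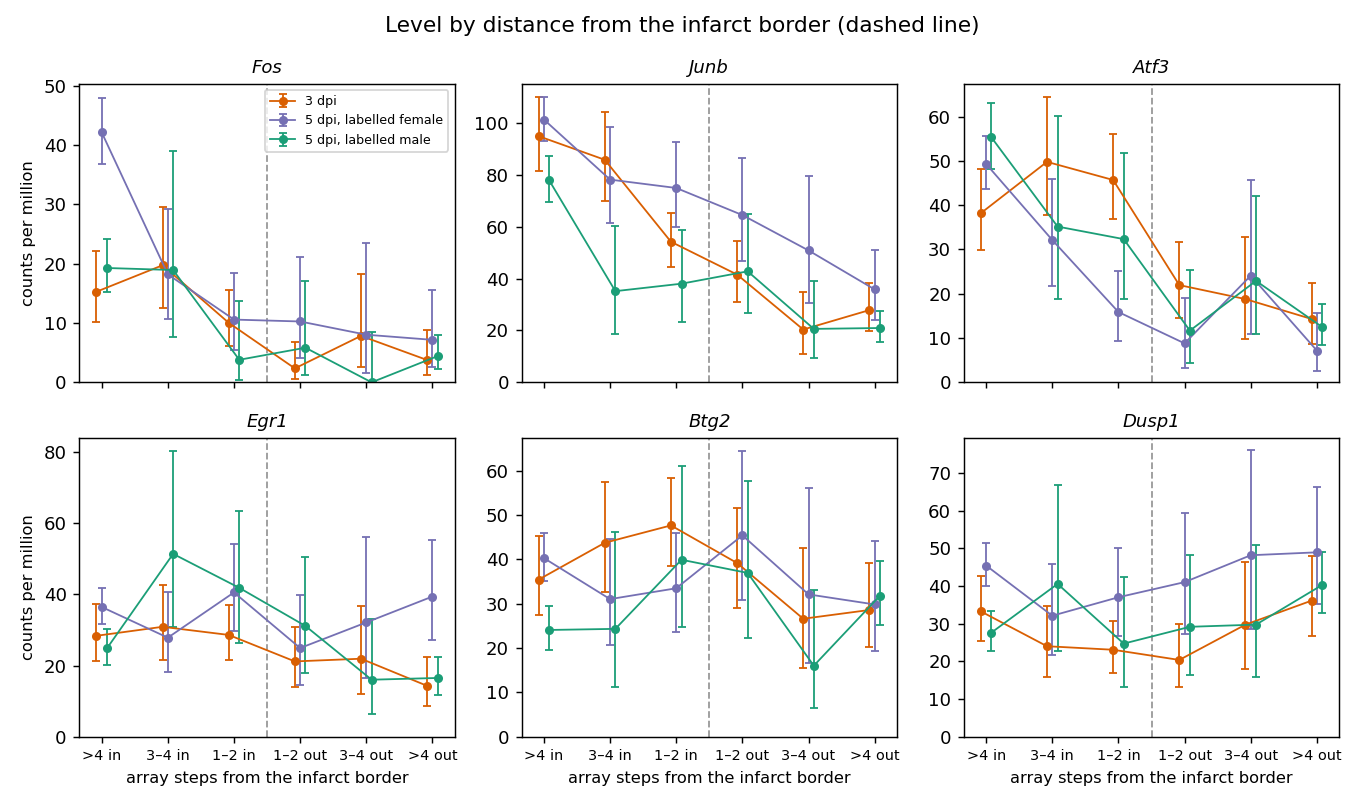
CPM of 6 genes by array steps from the infarct border, from deep inside (left) to remote tissue (right), with exact 95% Poisson intervals. Fos and Junb are highest more than 4 steps inside in both 5 dpi hearts, by little for Fos in the M-labelled one (19.3 against 18.9), and Atf3 within 2 steps inside is at 45.7 in the 1 heart at 3 dpi and at 15.9 and 32.3 at 5 dpi, its interval overlapping that of the M-labelled heart.

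Muscle away from the infarct was compared with the uninjured heart to see whether levels differed outside the lesion. Egr1 was at 14.3, 39.4 and 16.5 CPM in the RZ against 6.95 CPM in the control, ratios of 2.06 (1.08 to 3.86), 5.67 (3.29 to 9.86) and 2.38 (1.42 to 4.04). In the richest share group it was at 9.82, 38.2 and 10.7 CPM against 7.90 CPM in the control. There the intervals of the 3 dpi and M-labelled hearts overlapped that of the control. Junb in the RZ was 2.04, 2.63 and 1.54 times the control level of 13.6 CPM, each with an interval above 1. Ier2 was at 41.4, 76.4 and 51.6 CPM against 36.4 CPM, with ratio intervals of 0.816 to 1.57, 1.54 to 2.85 and 1.10 to 1.82. Nr4a1 was at 6.77, 22.7 and 8.46 CPM against 4.55 CPM, and only the F-labelled heart had an interval above 1 (2.46 to 10.2). Jun went lower in 2 hearts, with 32.4 and 36.7 CPM against 54.6 CPM, and Atf3 lay on both sides of the control (14.3, 7.16 and 12.5 CPM against 11.2 CPM). Btg2 was at 28.6 to 31.8 CPM against 21.9 CPM in the control. Fos was at 3.76, 7.16 and 4.43 CPM against 2.41 CPM, and Dusp1 at 36.1, 49.0 and 40.3 CPM against 49.5 CPM. Every ratio interval of Fos and Dusp1 included 1. Marker genes of other cells were higher in the RZ of all 3 hearts as well. Fibroblast genes summed to 2729, 3674 and 2813 CPM against 1062 CPM in the control, and macrophage genes to 1475, 1784 and 1333 CPM against 797 CPM, with no gene of either list at 0. The 8 border cardiomyocyte genes summed to 7156, 12250 and 9467 CPM against 4292 CPM, with 1 of them at 0 in the control. The 5 erythroid genes were on both sides of the control, with 6893, 33350 and 15450 CPM against 8651 CPM. Their part in the values was not tested. With 1 control heart these differences have no replicate check.

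Differences between 3 and 5 dpi were not tested, and the 2 hearts at 5 dpi differed from each other. Mean levels at 5 dpi were 20.4 ± 12.0 CPM (SD, n = 2) for Fos and 68.3 ± 24.0 CPM for Junb, against 10.1 and 59.0 CPM at 3 dpi. For Ier2 they were 89.1 ± 7.75 CPM against 65.6 CPM, and for Atf3 35.7 ± 0.334 CPM against 33.7 CPM. At 3 dpi, Jun, Junb, Egr1 and Nr4a1 lay within the 5 dpi range, Btg2 lay above it, and Fos, Fosb, Atf3, Ier2 and Dusp1 lay below it. The richest-share group of the F-labelled heart held 38.2 CPM Egr1, 84.3 CPM Ier2 and 23.5 CPM Nr4a1, against 9.82 to 10.7, 36.7 to 42.9 and 4.58 to 7.66 CPM in the other infarcted hearts.

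The genes were sparse per spot. At a fixed 1534 non-mitochondrial UMIs per spot, shallower spots left out (28 to 226 per section), the expected share of IZ spots with at least 1 Fos UMI was 1.98%, 5.01% and 2.44%, against 0.520%, 0.986% and 0.639% in the RZ and 0.467% in the control. Without thinning the IZ shares were 8.30% to 18.7%. Junb was expected in 10.9%, 13.6% and 10.2% of IZ spots against 3.53%, 5.40% and 3.39% of RZ spots, and Atf3 in 6.67%, 6.11% and 7.02% against 2.23%, 1.16% and 2.13%. Without thinning, Junb was seen in 34.2%, 46.9% and 38.1% of IZ spots and Atf3 in 22.1%, 24.3% and 27.4%. For these 3 genes the IZ share was above the RZ share in every heart at equal depth.

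Fos was also uneven within the IZ of one heart. Its variance over spots was 1.63 times the Poisson value in the F-labelled heart, at or above 95.2% of the 8702 genes there, while the median gene was at 1.05. In the M-labelled heart the same ratio was 1.10, and at 3 dpi 24.7% of genes were at or below that of Fos. Junb was uneven at 3 dpi (1.25) and not in the M-labelled heart (0.99). Atf3 was above the median gene in all 3 hearts, at 1.17, 1.21 and 1.26.

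Members of the group were found in the same spot about as often as their separate frequencies and the depth of each spot predict. Over the 36 pairs without Fosb, spots positive for both genes of a pair in the IZ were 0.99, 1.04 and 1.07 times the number expected. Of the 36 pairs, 15, 27 and 28 were above the expected number. Among the 3 pairs of AP-1 genes, Fos and Junb shared 33, 113 and 36 IZ spots, 1.24, 1.11 and 1.14 times the expected number. Fos and Jun were at 1.06, 0.92 and 1.02 times it, and Jun and Junb at 0.99 times it in every heart. A spot holds several cells, so these are counts of spots and not of cells.

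Of 38 other immediate early genes listed beside these 10, 31 could be tested, and 16 rose and 2 fell in the IZ against the RZ, beside 28.2% of all genes higher and 25.8% lower, with a median log2 fold change of 0.58 against 0.08 over all genes. The AP-1 partner Fosl2 rose by 1.12 on the log2 scale (adjusted p = 1.95e-05), and the list's most abundant genes were Ccn2, Mcl1, Ccn1 and Ier3. Ccn2 and Ccn1, matricellular proteins also induced by YAP, rose by 1.26 and 1.27 (adjusted p = 9.58e-07 and 3.91e-07), while Mcl1, a survival factor of the BCL2 family, was at 0.26 (adjusted p = 0.0868). Klf4, a zinc finger factor, and Homer1, a synaptic scaffold also found in muscle, fell by 0.88 and 1.52. In BZ2 against RZ, 4 rose and 0 fell, beside 3.95% and 4.66% of all genes, among them Ccn2 (1.07, adjusted p = 0.000318), Ccn1 (0.67) and Ier3 (0.69). In IZ against BZ2, 8 rose and 2 fell, beside 15.7% and 18.6% of all genes, and Ier3 was lower there (-0.52, adjusted p = 0.0162). Fosl2, Klf4 and Homer1 were named after their values were seen.

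Regulators that act above the immediate early genes were listed too. Of 21 tested, 5 rose and 5 fell in the IZ against the RZ, where 28.2% of all genes rose and 25.8% fell. Mapk3, which encodes the kinase ERK1, rose by 0.71 ± 0.14 (adjusted p = 0.000140), Rps6ka4, a kinase of CREB, by 1.17 ± 0.17 (adjusted p = 5.21e-06) and the ternary complex factor Elk3 by 0.41 ± 0.16 (adjusted p = 0.0348). Map2k2, the kinase above ERK, fell by 0.48 (adjusted p = 0.00393). Srf itself, named after its value was seen, fell by 1.07 on the log2 scale (adjusted p = 0.000757). In BZ2 against RZ 0 of the 21 passed by edgeR or DESeq2, and 0 had an unadjusted p under 0.05 by either, beside 8.61% of all genes called. In IZ against BZ2 4 rose and 1 fell, beside 15.7% and 18.6% of all genes.

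Stress pathways that can induce Atf3 or Btg2 were listed as well, in the same IZ against RZ comparison with 28.2% of all genes higher and 25.8% lower. Of 10 ATF4 stress response genes tested, 6 rose and 1 fell (median log2 fold change 0.91), led in abundance by Nupr1, a stress-response chromatin protein, at 1.82 ± 0.17 (adjusted p = 1.06e-08). Atf4 itself was at 0.29 ± 0.13 (adjusted p = 0.0607), Ddit4 at 0.85 and Ddit3 at 0.16 (adjusted p = 0.439). Of 9 p53 target genes tested, 6 rose and 1 fell (median 1.06): Bax, a death effector, rose by 1.18 and Phlda3, an inhibitor of AKT, by 1.19, whereas Ccng1, the most abundant, fell by 1.85, and Aen was at -0.22 (adjusted p = 0.242). Of 9 heat shock genes 1 rose and 1 fell (median 0.09), and the abundant chaperones Hspa8, Hspb1, Hspe1 and Hsp90aa1 lay between -0.39 and 0.32 with adjusted p from 0.0593 to 0.289.

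Over 17 sums of a section and a share group with at least 50 spots, each gene was set against the mean of the other 9 as log2(CPM + 1). Pearson's correlation was 0.91 for Junb, 0.87 for Ier2, 0.78 for Fos, 0.66 for Egr1, 0.53 for Btg2, 0.52 for both Atf3 and Nr4a1, 0.49 for Jun, 0.27 for Fosb and -0.40 for Dusp1. Sums of one heart share a library and a depth, so these describe the profiles only. Among 3521 genes compared, those most like the group were Itpripl2 (0.95), Pfn1, the actin-binding profilin (0.95), P4ha2, a collagen prolyl hydroxylase (0.95), Pls3, an actin-bundling plastin (0.95), and Tagln, a smooth muscle actin-binding protein (0.94).

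Cardiomyocyte-rich spots within 2 steps of an array position without counts were compared with inner ones in all 4 hearts. Such positions lie outside the heart or in a cavity or gap, so the comparison is not one of depth below the surface. By edgeR 0 of the 9 tested genes passed, beside 0.0737% of all genes, and 0 of the 9 had an unadjusted p under 0.05. DESeq2 also called 0. Their log2 fold changes ran from -0.32 for Jun to 0.35 for Btg2, each with an SE of 0.15 or more. Btg2 was at 36.9, 51.3 and 44.4 CPM in outer spots of the infarcted hearts against 31.4, 32.2 and 27.3 CPM in inner ones, and at 19.6 against 22.9 CPM in the control. Its outer and inner intervals overlapped in each heart. Border cardiomyocyte genes summed to 10878, 18554 and 15861 CPM in outer spots of the infarcted hearts against 9959, 16251 and 10314 CPM in inner ones. Their part in the values was not tested.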

How the data were processed

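Each array yielded raw UMI counts per gene and spot, deposited by the authors without normalization. They were made with Space Ranger 1.3.1 (mm10 per the labels, Ensembl-based with GFP added per the methods), and the authors marked spots under tissue by hand. Marked spots with at least 500 UMIs, 250 genes and at most 50% mitochondrial UMIs were kept, and 623 unmarked spots of the M-labelled heart at 5 dpi were left out. Counts were summed per zone and heart (12 sums; 8 for outer against inner spots) and tested with edgeR 4.0.16 (R 4.3.3; TMM, filterByExpr, section as block), the SE being derived from the F statistic. DESeq2 1.42.0, other scalings, filters and zone limits, and each heart left out were tried as alternatives. Intervals are exact 95% Poisson intervals, or exact binomial ones for ratios, and cover counting error only. The test was tried on simulated data. Genes, lists and comparisons were chosen with earlier results of these data known. All 10 genes are named; of other lists, up to 4 by mean CPM in infarcted sections, and the 5 genes most like the group. Hearts are the replicates, not spots.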

Additional observations from a re-analysis of the deposited data

Results flagged for a closer look

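The sign of 2 ratios at 3 dpi was opposite to that in both hearts at 5 dpi, but every one of the 6 intervals included no difference, and the difference between time points was not tested. The CPM ratio of BZ2 over RZ for Fos was -0.68 on the log2 scale at 3 dpi, from 3 and 5 UMIs, and 0.52 and 0.40 in the F-labelled and M-labelled hearts at 5 dpi. That of IZ over BZ2 for Btg2 was 0.11 at 3 dpi, and -0.25 and -0.52 at 5 dpi. As linear ratios, the intervals for Fos were 0.0970 to 3.21 at 3 dpi, and 0.412 to 5.16 and 0.236 to 4.99 at 5 dpi. Those for Btg2 were 0.789 to 1.5 at 3 dpi, and 0.578 to 1.26 and 0.429 to 1.2 at 5 dpi.

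In the M-labelled heart, 623 spots with counts were not marked as under tissue and entered no comparison. They held Fos at 17.9 CPM, Junb at 83.9 CPM, Atf3 at 27.8 CPM, Egr1 at 22.9 CPM and Ier2 at 72.2 CPM, each with an interval above that of the control heart (control levels 2.41, 13.9, 11.2, 6.95 and 36.6 CPM). The intervals of Fosb (0.897 CPM), Jun (71.3 CPM), Nr4a1 (6.73 CPM) and Btg2 (23.8 CPM) overlapped those of the control. Dusp1 was lower, at 35.0 against 49.7 CPM, with intervals that overlapped too. No share over all genes is given beside these values.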

How the results depend on the processing

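Of 487 values of single-gene log2 fold changes under other settings, 424 kept their direction and side of the threshold, 14 lost and 9 gained significance, and 40 changed sign. Of 116 counts, 94 kept about their size and 22 moved. Of 59 single-gene folds between whole sections, 44 were kept and 15 moved. Fos, Junb, Atf3 and Dusp1 passed in IZ against RZ in every setting. No value that changed sign had passed the threshold, and the cause was not tested. With library size alone, 7 of the immediate early genes and 6445 of all genes (5298 with TMM) passed in IZ against RZ, and the log2 fold changes became 0.033 for Nr4a1 and 0.17 for Btg2 there, 0.080 for Fos and 0.082 for Jun in BZ2 against RZ, and 0.16 for Dusp1 in IZ against BZ2. With the 90th percentile of the control, Nr4a1 became 0.0052 in IZ against RZ.

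In BZ2 against RZ, 845 genes passed, against 56 without the section block, 535 with a limit of 0.6 times the percentile and 481 with the percentile of the control; 0 of the immediate early genes passed under these 3 settings, DESeq2 or a limit of 0.4. Nr4a1 became -0.051 with the limit of 0.4. With that of 0.6, Jun became 0.12, Atf3 -0.095, Egr1 -0.018, Nr4a1 -0.041 and Btg2 -0.025. With all spots under tissue, Fos became 0.16. In IZ against BZ2, Ier2 became -0.0058 without the block, -0.0022 with the limit of 0.4 and -0.043 with all spots, where Egr1 became -0.016.

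Between outer and inner spots, 7 genes passed, against 3 with DESeq2, 0 without the block (edgeR), 4 with the limit of 0.4 and 12 with outer spots within 1 step. Dusp1 became -0.0096 with no filter on low counts and -0.022 with the limit of 0.4, and Ier2 -0.029 with that of 0.6. With outer spots within 1 step, Junb became -0.73, Egr1 0.14 and Dusp1 -0.15, and with the edge of the tissue mask Fos became 0.18.

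In spots at or above the cardiomyocyte limit, 1 of 8 genes was at least 2-fold higher in every infarcted section, beside 7.40% of all genes, and it was not so at a share of 0.8 and over (Egr1 at 9.82 and 10.7 CPM in 2 hearts, 7.90 CPM in the control). In the spots at or above the limit, Egr1 reached 10 CPM only after infarction.

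Leaving out each heart in turn gave 156 (without the F-labelled heart) to 696 genes in BZ2 against RZ and 0 of the immediate early genes, 2127 (without the F-labelled heart) to 2921 in IZ against BZ2, where 3363 passed with all hearts, and 6 to 14 (without the M-labelled heart; 12 without the control) between outer and inner spots. The log2 fold changes that crossed 0 ran from -0.0054 to 0.45 for Egr1 and -0.42 to 0.070 for Btg2 in IZ against RZ. In BZ2 against RZ they ran from -0.40 to 0.22 for Fos, -0.21 to 0.41 for Atf3 and -0.24 to 0.51 for Egr1, and in IZ against BZ2 from -0.11 to 0.13 for Ier2 and -0.062 to 0.23 for Egr1. Between outer and inner spots they ran from -0.35 to 0.017 for Egr1, -0.25 to 0.52 for Nr4a1, -0.10 to 0.23 for Dusp1, -0.017 to 0.37 for Junb and -0.49 to 0.10 for Atf3.

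The zone comparisons were paired within hearts through the section block. Between time points no paired analysis was possible because each section came from a different heart. Depth limits Fosb, which was not tested.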
